A study of Homo sapiens with 12 samples.

Results

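The MYB family of transcription factors comprises 3 genes, MYB, MYBL1 and MYBL2, and each has 1 of the 46863 rows of the count table of SU-DHL-4, a line of diffuse large B cell lymphoma. The rows were found by gene symbol, and all 3 genes passed the filter on low counts, which left 16835 genes for testing. MYB was chosen by its counts in these libraries, which were much lower with both agents than with DMSO, so that its values are a description without a test, whereas MYBL1 and MYBL2 entered as its paralogues and were tested.

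SU-DHL-4 is an established B cell lymphoma line, labelled wild type (wt) and derived from a peritoneal effusion. The cells were exposed for 72 h to the vehicle DMSO, the control, to entospletinib at 1 µM (Ento), an inhibitor of the kinase SYK of the B cell receptor pathway, to AZD5153 at 0.01 µM (AZD), a bivalent inhibitor of BET proteins, which bind acetylated histones, or to both agents at these concentrations (Ento+AZD). Each of the 4 groups held 3 libraries, numbered 1 to 3 in every group, and all came from 1 cell line, which limits the groups as a model. Polyadenylated RNA was sequenced, and the values given here are counts of reads per gene, or CPM, which are these counts scaled by TMM to a common library size. Total counts per library lay between 18121993 and 24675830, so that 1 count was worth 0.0393 to 0.0564 CPM. The B cell markers MS4A1 (CD20), at 1700 to 3660 CPM, and PAX5, at 335 to 469 CPM, were present in all libraries, whereas the T and NK cell markers CD3D and GNLY and the myeloid marker FCGR3A had 0 counts in all 12 libraries. Of the same lists CD3E had 9 to 51 counts, NKG7 20 to 53 and CSF1R 2 to 7 in every library, and CD3G, CD14 and LYZ had at most 3.

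MYB proteins bind DNA through Myb repeats that recognize the letters AACNG, and they recruit coactivators to their target genes. MYB (c-Myb) is known from immature blood cells and is lost as these mature. MYBL1 (A-Myb) is known from germinal-centre B cells and from spermatocytes. MYBL2 (B-Myb) is made in dividing cells, where E2F factors switch it on as cells enter S phase, and it joins the MuvB complex and FOXM1 at genes that are used in G2 and mitosis.

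The bases before the start of MYB are shown because MYB had the lowest fold changes of the family and its promoter holds an E2F letter sequence. Capitals mark GGCGGGA, the core letters of an E2F site, in the 250 bases upstream of the RefSeq start (GRCh38.p14, chr6:135181058-135181307, plus strand, 5′ to 3′).
MYB: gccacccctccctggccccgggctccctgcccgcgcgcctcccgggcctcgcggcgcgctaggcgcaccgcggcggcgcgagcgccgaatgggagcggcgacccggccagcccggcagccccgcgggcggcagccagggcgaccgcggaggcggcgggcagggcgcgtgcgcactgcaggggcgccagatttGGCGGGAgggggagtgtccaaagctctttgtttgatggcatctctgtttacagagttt

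The same letters stand before the start of MYBL2, in both cases preceded by TT. The short stretches below set them beside the 3 E2F-driven genes of the list used further on that hold the same 9 letters, TTGGCGGGA, which are in capitals. This extension was chosen after the sequences were seen.
MYB (chr6:135181238-135181266, plus strand): ggcgccagatTTGGCGGGAgggggagtgt
MYBL2 (chr20:43667063-43667091, plus strand): gccgacgcgcTTGGCGGGAgatagaaaag
CDT1 (chr16:88803753-88803781, plus strand): cgcgggaaatTTGGCGGGAaccgcgcccg
CDC6 (chr17:40287842-40287870, plus strand): aggccgggctTTGGCGGGAggtgggaacg
CDC45 (chr22:19479886-19479914, plus strand): gagccgtgatTTGGCGGGAgtcttgaccg

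The first letter of this match lay 60 bases before the RefSeq start of MYB and 41 bases before that of MYBL2, and the GENCODE start of MYBL2 is 95 bases further upstream, so that its match lies inside the GENCODE gene. On either strand, GGCGGGA was found in 2249 of 10473 promoters of tested genes with an entry (21.5%), and TTGGCGGGA, which contains it, in 52 (0.497%). MYB also held 1 match of the family's own letters AACNG, 15 bases before its start, and MYBL2 none, against 68.7% of the promoters with such a match. The E-box CACGTG was found in MYBL2, 243 bases before its start, and not in MYB, against 8.96% of the promoters. The MYBL1 promoter is not shown.

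The letters TTTGAA, the cell cycle genes homology region (CHR) to which the MuvB subunit LIN54 binds, were absent from these windows of MYB and MYBL2. They were found in 8.74% of all promoters and in 14 of the 25 G2/M gene promoters with an entry (56.0%), of which the first 3 in the list are shown with the letters in capitals. The variant TTCGAA, in 1.42% of all promoters, was absent from both windows too. In CCNB2 and PLK1 the first letter of TTTGAA lay 29 bases before the start, and in CDK1 161 bases.
CCNB2 (chr15:59105107-59105132, plus strand): cgacgcggtaTTTGAAtcctggaaca
CDK1 (chr10:60778160-60778185, plus strand): gtataataaaTTTGAActgtgccaat
PLK1 (chr16:23678850-23678875, plus strand): cagcgccgcgTTTGAAttcggggagg

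Of the 20 E2F-driven G1/S genes with an entry, 10 held GGCGGGA (50.0%), 3 held TTGGCGGGA (15.0%) and none held TTTGAA, while the G2/M genes held GGCGGGA in 6 of 25 promoters (24.0%) and TTGGCGGGA in none. These matches describe letters and are not evidence of binding.

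On GRCh38 (GENCODE v44), MYB (ENSG00000118513.20) occupies chr6:135181308-135219173 on the plus strand, MYBL1 (ENSG00000185697.17) chr8:66562175-66614247 on the minus strand, and MYBL2 (ENSG00000101057.16) chr20:43667019-43716495 on the plus strand. Their longest annotated transcripts hold 3684 bases in 16 exons, 5161 bases in 16 exons and 2704 bases in 13 exons. Exons of MYB-AS1 share 103 bases with exons of MYB on the opposite strand, and since the use of the strand in counting is not stated, the reads of this stretch cannot be assigned to either strand.

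Per kilobase of the longest transcript, the family was made up almost wholly of MYBL2 and MYBL1 RNA. With DMSO the level of MYBL2 was 135 ± 9.80 CPM per kb (SD, n = 3), above that of 97.0% of the 14452 tested genes with a known length. MYBL1 stood at 25.5 ± 4.40 CPM per kb (SD, n = 3), above 80.7% of these genes, and MYB at 2.80 ± 0.926 CPM per kb (SD, n = 3), above 32.4%. The order MYBL2, MYBL1, MYB held in all 12 libraries without overlap of their ranges per kb. The summed level of the 3 genes was 163 ± 14.2 CPM per kb with DMSO, 196 ± 21.6 with Ento, 148 ± 6.17 with AZD and 142 ± 18.2 with Ento+AZD (SD, n = 3 each).

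Within this sum the share of MYB was 1.71 ± 0.495% with DMSO and 0.277 ± 0.175% with Ento+AZD (SD, n = 3). The share of MYBL1 was 15.6 ± 1.54% with DMSO and 27.0 ± 8.34% with Ento+AZD, while that of MYBL2 was 82.7 ± 1.41% and 72.7 ± 8.17% (SD, n = 3). The ratio of MYBL2 to MYBL1 per kb was 5.34 ± 0.589 with DMSO and 2.90 ± 1.02 with Ento+AZD, and that of MYBL2 to MYB was 50.8 ± 12.7 and 388 ± 306 (SD, n = 3), where the ratios with Ento+AZD ran from 181 to 740.

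MYB RNA was lower in the libraries with both agents than in those of any other group. The counts of libraries 1, 2 and 3 were 201, 190 and 362 with DMSO, 141, 60 and 229 with Ento, 137, 57 and 132 with AZD, and 37, 8 and 42 with Ento+AZD. As CPM these were 7.99, 8.70 and 14.2 with DMSO, 5.93, 3.07 and 11.2 with Ento, 5.77, 3.05 and 6.39 with AZD, and 1.81, 0.381 and 2.37 with Ento+AZD. The Ento libraries overlapped those with DMSO, the AZD libraries overlapped those with Ento, and the Ento+AZD libraries lay below all others. Such a gap in the downward direction was found for 20.0% of all genes against DMSO, 11.7% against Ento and 7.99% against AZD, from which nothing is read for MYB, since these libraries chose it.

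**Figure D1:**
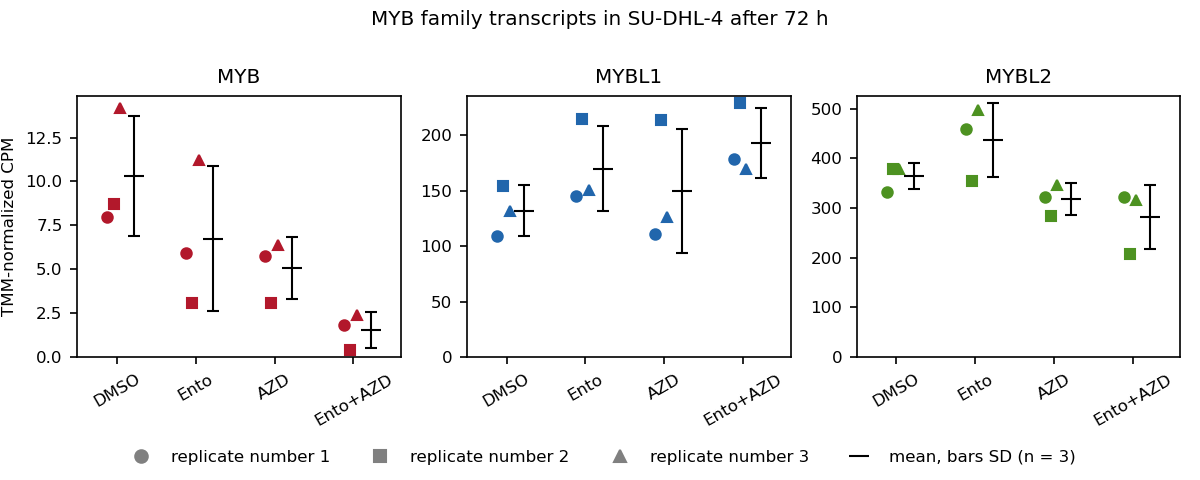
TMM-normalized CPM of MYB, MYBL1 and MYBL2 in each of the 12 libraries (vertical axes, from 0 and scaled to each gene) by treatment group, with symbols for the replicate number and the mean with SD of 3 libraries beside them. MYB ranges from 7.99 to 14.2 CPM with DMSO and from 0.381 to 2.37 CPM with Ento+AZD, while MYBL1 ranges from 109 to 229 CPM and MYBL2 from 207 to 497 CPM over all groups.

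In the fit to all libraries, with treatment group and replicate number as terms, the log2 fold change of MYB against DMSO was −0.72 ± 0.24 (SE) with Ento, with a 95% interval from −1.23 to −0.20. With AZD it was −1.05 ± 0.25 (SE), with an interval from −1.58 to −0.52. With Ento+AZD it was −2.85 ± 0.29 (SE), with an interval from −3.48 to −2.22, a level 7.20-fold below that of DMSO. The log2 fold change was negative for all 3 replicate numbers in each exposure, at −2.09, −4.21 and −2.54 for Ento+AZD. Without the libraries numbered 2, which held the lowest MYB count of every exposure, the fitted log2 fold changes were −0.39 with Ento, −0.82 with AZD and −2.39 with Ento+AZD.

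Against the single agents, MYB with Ento+AZD stood at a log2 fold change of −2.13 ± 0.30 (SE) relative to Ento and −1.80 ± 0.31 (SE) relative to AZD. Ordered from the lowest log2 fold change among the 16835 genes, MYB held place 375 with Ento, 449 with AZD and 16 with Ento+AZD. The 3 comparisons share the DMSO libraries, so that these places are not independent. On the log2 scale the change with both agents departed from the sum of the single-agent changes by −1.08 ± 0.40 (SE), with a 95% interval from −1.93 to −0.23. Because MYB was chosen for its low level with both agents, this value and its interval are a description and no test of an interaction.

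MYBL1, the germinal-centre member, rose by 1.47-fold with Ento+AZD. Its counts in libraries 1, 2 and 3 were 2740, 3369 and 3354 with DMSO (109, 154 and 132 CPM), 3456, 4196 and 3079 with Ento (145, 215 and 151 CPM), 2627, 4008 and 2604 with AZD (111, 214 and 126 CPM), and 3662, 4806 and 3019 with Ento+AZD (179, 229 and 170 CPM). In every group library 2 had the highest CPM, and only the Ento+AZD range lay clear above that of DMSO. Non-overlap of this kind in the upward direction was seen for 19.1% of the genes in this comparison.

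The log2 fold change of MYBL1 with Ento+AZD was 0.55 ± 0.10 (SE), with a 95% interval from 0.33 to 0.77 and an adjusted p = 0.000747 (edgeR's quasi-likelihood F-test, Benjamini-Hochberg adjusted over all genes), and it was positive for all 3 replicate numbers. At an adjusted p under 0.05, the threshold for a call, 40.0% of all tested genes were called in this comparison, 19.2% upward and 20.8% downward. In the model without the replicate block the value remained at 0.55 and the call was lost, with an adjusted p = 0.13 by the same edgeR test.

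With Ento alone MYBL1 had a log2 fold change of 0.36 ± 0.10 (SE) and an adjusted p = 0.0416 by the same edgeR test, in a comparison in which 8.32% of genes were called, 4.66% upward and 3.66% downward. The CPM ranges overlapped. This call was lost without the replicate block (0.37, adjusted p = 0.583 by edgeR's test) and without any 1 of DMSO libraries 1 and 2, Ento libraries 1, 2 and 3, AZD library 3 or Ento+AZD library 3, where edgeR's adjusted p lay between 0.0514 and 0.16. With AZD the log2 fold change was 0.15 ± 0.10 (SE), with an interval from −0.07 to 0.37 and an adjusted p = 0.313 by edgeR's test.

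Relative to AZD, MYBL1 was higher with Ento+AZD by 0.40 ± 0.10 (SE) on the log2 scale, with an adjusted p = 0.0216 by the same edgeR test, where 11.9% of genes were called, 5.85% upward and 6.04% downward. This call was lost without the replicate block (0.36, adjusted p = 0.559 by edgeR's test) and without AZD library 1, Ento+AZD library 1 or AZD library 3 (edgeR's adjusted p from 0.0868 to 0.14). Relative to Ento the difference was 0.19 ± 0.10 (SE), with an interval from −0.02 to 0.41 and an adjusted p = 0.198 by edgeR's test. The levels of MYBL1 thus ran in the order Ento+AZD, Ento, AZD and DMSO by mean, and the CPM ranges of neighbours in this order overlapped.

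MYBL2, the cell cycle member, fell with Ento+AZD, with a log2 fold change nearer to 0 than that of MYB. Its counts in libraries 1, 2 and 3 were 8383, 8278 and 9642 with DMSO (333, 379 and 379 CPM), 10944, 6913 and 10110 with Ento (460, 354 and 497 CPM), 7659, 5323 and 7182 with AZD (323, 284 and 347 CPM), and 6590, 4346 and 5595 with Ento+AZD (322, 207 and 316 CPM). Library 2 was the lowest of each exposure, and all Ento+AZD libraries lay below all DMSO libraries, as was the case for 20.0% of the genes.

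The log2 fold change of MYBL2 with Ento+AZD was −0.40 ± 0.11 (SE), with a 95% interval from −0.64 to −0.15 and an adjusted p = 0.0135 by the same edgeR test, a level 1.32-fold below DMSO. For replicate numbers 1, 2 and 3 the log2 fold changes were −0.05, −0.87 and −0.26. The call was lost without the replicate block (−0.37, adjusted p = 0.146 by edgeR's test), without DMSO library 2 (−0.22, 0.0862) and without Ento+AZD library 2 (−0.25, 0.0883). Without all libraries numbered 2 the value was −0.17, with an adjusted p = 0.175 by edgeR's test.

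With the single agents MYBL2 did not pass the test. Its log2 fold change was 0.24 ± 0.11 (SE) with Ento (edgeR's adjusted p = 0.209) and −0.21 ± 0.11 (SE) with AZD, with an interval from −0.45 to 0.04 (edgeR's adjusted p = 0.21), where 22.2% of genes were called, 9.57% upward and 12.7% downward. Without DMSO library 2 the Ento value was 0.43, with an adjusted p = 0.0189 by edgeR's test.

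MYBL2 had its smallest adjusted p between both agents and Ento alone, where the log2 fold change was −0.64 ± 0.11 (SE), with an interval from −0.88 to −0.39 and an adjusted p = 0.00192 by edgeR's test. In that comparison 20.4% of genes were called, 8.27% upward and 12.2% downward, and all MYBL2 values with Ento+AZD lay below those with Ento, as for 11.7% of the genes. Without the replicate block the adjusted p was 0.0906 by edgeR's test, at −0.63. Relative to AZD the log2 fold change was −0.19 ± 0.11 (SE), with an interval from −0.44 to 0.05 and an adjusted p = 0.303 by edgeR's test. By mean, MYBL2 was ordered Ento, DMSO, AZD and Ento+AZD, with overlapping CPM ranges between neighbours.

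**Figure D2:**
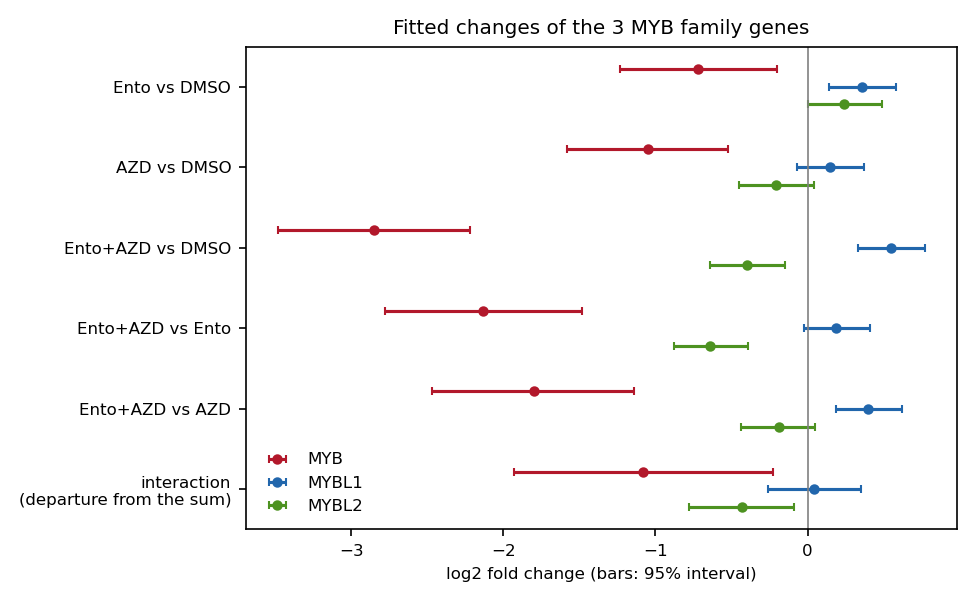
Fitted log2 fold changes (horizontal axis) of MYB, MYBL1 and MYBL2 for the 5 comparisons and for the interaction of the agents, with 95% intervals as bars and a line at 0. With Ento+AZD against DMSO, MYB lies at −2.85, MYBL2 at −0.40 and MYBL1 at 0.55. The intervals of MYB are a description, since these libraries chose it.

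For MYBL1 the departure from the sum of the single-agent changes was 0.04 ± 0.14 (SE), with an interval from −0.26 to 0.35 and an adjusted p = 0.949 by edgeR's test, and for MYBL2 it was −0.43 ± 0.16 (SE), with an interval from −0.78 to −0.09 and an adjusted p = 0.449. By edgeR, 0 genes were called for this interaction, 1652 genes (9.81%) had an unadjusted p under 0.05, and DESeq2 called 7 genes. Without DMSO library 2 the interaction of MYBL2 was −0.63, with an adjusted p = 0.0337 by edgeR's test.

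The paralogues were compared with each other within the replicate numbers. MYBL1 minus MYBL2 differed in log2 change by 0.77, 1.44 and 0.63 for Ento+AZD against DMSO, a mean of 0.95 ± 0.43 (SD, n = 3; exact two-sided sign-flip permutation test, p = 0.25). The same difference was 0.11 ± 0.41 with Ento and 0.34 ± 0.47 with AZD (SD, n = 3; exact permutation p = 1.0 and 0.25). With 3 replicate numbers 0.25 is the smallest p that this test allows.

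In a list of MuvB, pocket protein and E2F-related genes and FOXM1, 6 of 12 genes had lower log2 fold changes with Ento+AZD than MYBL2. These were the genes of the list that fell, and the differences were not tested. Since MYBL2 fell, genes that rose had to lie above it, so the split by call shows nothing about MYBL2. MuvB is a core of LIN proteins and RBBP4 that joins either the pocket proteins and E2F4, to hold cell cycle genes off, or MYBL2 and FOXM1, to switch them on. Of the 12 genes of this list, 0 rose and 0 fell with Ento, 1 rose and 5 fell with AZD, and 2 rose and 6 fell with Ento+AZD (edgeR's test, adjusted p under 0.05), where 8.32%, 22.2% and 40.0% of all genes were called. The median log2 fold change with Ento+AZD was −0.27, against 0.01 over all genes. FOXM1, the activator of mitotic genes, stood at 162 ± 29.5 CPM with DMSO and 59.6 ± 30.4 CPM with Ento+AZD (SD, n = 3), a log2 fold change of −1.60 ± 0.20 (SE; edgeR's adjusted p = 4.16e-05).

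Among the MuvB subunits, the log2 fold change with Ento+AZD was −0.85 for LIN9, −0.56 for LIN54 and −0.43 for LIN52, all called, and −0.12 for LIN37 and 0.06 for the histone-binding RBBP4, which were not. RBL1, the pocket protein p107, fell by 0.87 on the log2 scale, and TFDP2, a dimer partner of E2F factors, by 0.59. Without the replicate block 2 of the 12 genes were called with Ento+AZD and 0 with AZD, and without the libraries numbered 2 the count with AZD was 3. In the model without the block fewer of all genes were called too, for which the last section gives the numbers.

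The genes that MYBL2, MuvB and FOXM1 are known to serve in G2 and mitosis were all lower with Ento+AZD. Of 30 such genes, 0 rose and 1 fell with Ento (CENPE, a kinetochore motor, −0.58), 28 fell with AZD and 30 fell with Ento+AZD by edgeR's test (adjusted p under 0.05), where 3.66%, 12.7% and 20.8% of all genes fell. Their median log2 fold changes were −0.37, −0.81 and −1.49, where the median of all genes was 0.01. With Ento+AZD they ran from −1.87 for CCNA2 (cyclin A2) to −0.70 for CKS2, a subunit of cyclin-dependent kinases.

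CCNA2 stood at 220 ± 50.0 CPM with DMSO and 70.0 ± 41.2 CPM with Ento+AZD (SD, n = 3). UBE2C, an enzyme of mitotic cyclin breakdown, KIF2C, a kinesin that depolymerizes microtubules, and the kinase AURKB had log2 fold changes of −1.82, −1.73 and −1.72 with Ento+AZD. The log2 fold changes of the 3 genes printed with TTTGAA were −1.25 for CCNB2, −1.67 for CDK1 and −1.62 for PLK1. In each of the 3 exposures all 30 genes had a lower log2 fold change than MYBL2, a count for which no test was made. Without the libraries numbered 2 the counts were 0 with Ento, 28 with AZD and 30 with Ento+AZD, whereas without the replicate block 0 genes were called with AZD and 2 of 30 with Ento+AZD. Without the block fewer of all genes were called too, and 2 of 30 was a smaller share than that of all genes. In bulk RNA, fewer cells in a phase of the cycle and less RNA per cell cannot be told apart.

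The E2F-driven G1/S genes, the group in which MYBL2 itself is usually placed, were, with 1 exception, lower with Ento+AZD too. Of 24 such genes, 0 rose in any exposure, 1 fell with Ento (CDT1), 11 with AZD and 23 with Ento+AZD (edgeR's test, adjusted p under 0.05), against 3.66%, 12.7% and 20.8% of all genes. Their medians were −0.16, −0.53 and −1.33. With Ento+AZD the lowest were CDT1, the replication licensing factor, at −2.34 ± 0.22 (SE), E2F2 at −2.05, MCM10, a replication initiation factor, at −1.73 and the phosphatase CDC25A at −1.69. SLBP, which binds histone mRNA, had −0.14 and was the gene not called.

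The log2 fold changes with Ento+AZD of the genes printed with TTGGCGGGA were −2.85 for MYB, −2.34 for CDT1, −1.47 for CDC45, −1.36 for CDC6 and −0.40 for MYBL2. MYB was chosen for its fall, and the other genes among the 52 with these 9 letters were not examined, so nothing is read from this range. Of the 24 genes, 23 had a lower log2 fold change than MYBL2 with Ento+AZD and 0 a lower one than MYB. The latter count was nearly fixed, since MYB was chosen for its fall and 0.0891% of all genes lay below it. Without the replicate block 7 of 24 genes were called with Ento+AZD and 0 with AZD, and without the libraries numbered 2 these counts were 22 and 5.

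**Figure D3:**
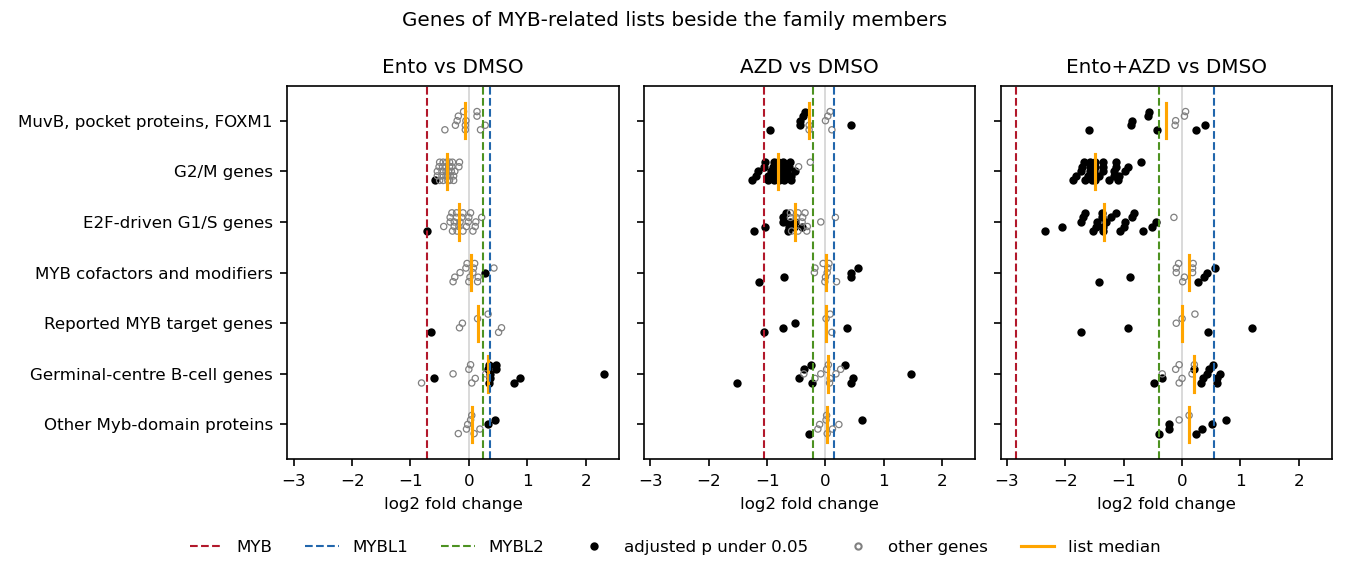
Fitted log2 fold changes against DMSO (horizontal axes) of the genes of 7 lists in the 3 exposures, as filled points where called by edgeR's test at an adjusted p under 0.05 and open points otherwise, with the list median in orange and MYB, MYBL1 and MYBL2 as dashed lines. With Ento+AZD the G2/M and G1/S genes, with medians of −1.49 and −1.33, have lower values than MYBL2 at −0.40, apart from SLBP at −0.14. MYB was chosen for its fall, so that its place below these genes was nearly fixed.

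The genes known to modify MYB or to act with it were called at about the share of all genes with Ento+AZD. Of the 14 tested genes of 15 listed (HIPK2 did not pass the filter), 1 rose and 0 fell with Ento, 3 rose and 2 fell with AZD, and 4 rose and 2 fell with Ento+AZD (edgeR's test, adjusted p under 0.05), where 8.32%, 22.2% and 40.0% of all genes were called. The median with Ento+AZD was 0.11. The coactivators CREBBP and EP300, which bind the activation domain of MYB, had log2 fold changes of 0.19 and 0.18 with Ento+AZD (edgeR's adjusted p = 0.104 and 0.177). The kinase PIM1 fell by 1.43 and CEBPB, a factor that acts beside MYB at myeloid genes, by 0.89, while MYBBP1A, a nucleolar MYB-binding protein, rose by 0.56 and NLK, a kinase that targets MYB for degradation, by 0.42. Without the replicate block 1 of the 14 was called with Ento+AZD.

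Of 15 genes described as MYB targets in blood cells, only 7 passed the filter in this line, and ELANE, GATA3, GFI1, GSTM1, KIT, MPO, PTGS2 and RAG2 did not. With Ento 0 rose and 1 fell, with AZD 1 rose and 3 fell, and with Ento+AZD 2 rose and 2 fell (edgeR's test, adjusted p under 0.05), where 8.32%, 22.2% and 40.0% of all genes were called. The median with Ento+AZD was 0.00. ADA, adenosine deaminase, was the gene of this list called in all 3 exposures, with log2 fold changes of −0.64 with Ento, −1.06 with AZD and −1.74 ± 0.16 (SE) with Ento+AZD (edgeR's adjusted p = 6.08e-06). Its level was 13.7 ± 1.57 CPM with DMSO and 4.09 ± 0.246 CPM with Ento+AZD (SD, n = 3).

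CCNB1, cyclin B1, which is also in the G2/M list, fell by 0.92 with Ento+AZD, while CD34, a progenitor marker, and BCL2, the inhibitor of apoptosis, rose by 1.19 and 0.45. CD34 was scarce, at 1.14 ± 0.324 CPM with DMSO and 2.62 ± 0.129 CPM with Ento+AZD (SD, n = 3). MYC, named after its values were seen as the classical target of BET inhibition, had 499 ± 93.6 CPM with DMSO and 463 ± 48.9 CPM with Ento+AZD (SD, n = 3), with a log2 fold change of −0.10 and an adjusted p = 0.347 by edgeR's test. With AZD alone the log2 fold change of MYC was 0.08, with an adjusted p = 0.476 by the same edgeR test.

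MYBL1 was set beside 18 genes by which germinal-centre B cells are known. With Ento 10 of them rose and 1 fell, with AZD 4 rose and 5 fell, and with Ento+AZD 9 rose and 2 fell (edgeR's test, adjusted p under 0.05). Of all genes 4.66% rose and 3.66% fell with Ento, 9.57% and 12.7% with AZD, and 19.2% and 20.8% with Ento+AZD. The list medians were 0.33, 0.04 and 0.20 beside the MYBL1 values of 0.36, 0.15 and 0.55. With Ento+AZD the genes with the largest changes were IRF8, a B cell transcription factor, at 0.65, the ectoenzyme CD38 at 0.60, the serpin SERPINA9 at 0.59 and the DNA glycosylase NEIL1 at 0.53. The lowest was GCSAM at −0.48, and 7 of the 18 genes were not called. Of the 18 genes 3 had a higher log2 fold change than MYBL1 with Ento+AZD.

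With Ento alone SUGCT stood at 2.31 and TCL1A, an activator of AKT, at 0.88, while IRAG2 fell by 0.60 on the log2 scale. With AZD alone SUGCT was at −1.52 and LMO2, a transcriptional adaptor, at 1.46, so that the list moved in both directions. SUGCT was scarce with DMSO, at 1.08 ± 0.491 CPM (SD, n = 3). Without the replicate block 0 genes of this list were called with either single agent and 5 with Ento+AZD, and without the libraries numbered 2 the counts were 6 with Ento and 7 with Ento+AZD.

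Proteins with a Myb-like domain outside the family were counted in the same manner. Of 9 genes, 2 rose and 0 fell with Ento, 1 rose and 1 fell with AZD, and 4 rose and 3 fell with Ento+AZD (edgeR's test, adjusted p under 0.05), against 8.32%, 22.2% and 40.0% of all genes called in either direction. The largest values with Ento+AZD were 0.75 for SNAPC4, a subunit of the snRNA-activating complex, 0.51 for DMTF1, a cyclin D-binding factor, −0.40 for TERF1, a telomere protein, and 0.34 for MYSM1, a histone deubiquitinase. With Ento+AZD 0 of the 9 genes and 0.0891% of all genes had a log2 fold change below that of MYB, from which nothing is read.

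The chromosomal neighbours of the 3 genes were examined because BET proteins act at enhancers, which can serve several genes, and the interval between HBS1L and MYB is known to hold MYB enhancers. Of the 10 tested neighbours of MYB, 1 rose and 5 fell with Ento+AZD by edgeR's test (adjusted p under 0.05), in a comparison in which 19.2% of all genes rose and 20.8% fell. HBS1L, a translation factor whose body ends 78.3 kb away, and AHI1, a cilium protein 64.2 kb away on the other side, fell by 0.30 and 0.33 on the log2 scale. With AZD alone, the BET inhibitor, neither was called. Relative to AZD their log2 fold changes with Ento+AZD were −0.30 and −0.28, and relative to Ento −0.10 and −0.09. Whether they share an enhancer with MYB was not tested. Exons of other genes overlap AHI1 on the opposite strand, as they do SLC2A12, PDE7A, MTFR1, MCMDC2, SNHG6 and L3MBTL1 among the neighbours named next, so that their values are uncertain.

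The further neighbours called were SGK1, a kinase, at 1.83, and MTFR2, MAP3K5 and the pseudogene GAPDHP73 at −0.88, −0.65 and −0.46, while SLC2A12, BCLAF1 and the pseudogenes FAM8A6P and MEMO1P2 were not. All 10 had a log2 fold change above that of MYB. Since MYB was chosen for its fall and 0.0891% of all genes lay below it, this count says nothing about the neighbours. With the single agents 1 rose with Ento (SGK1, 1.41) and 1 fell with AZD (MAP3K5, −0.33).

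Around MYBL1 and around MYBL2, 4 of 10 tested neighbours each were called with Ento+AZD, the same share as the 40.0% of all genes. Around MYBL1, RRS1 and TRIM55 rose with Ento+AZD by 0.44 and 1.04, and MTFR1 and PTTG3P fell by 0.38 and 1.11, where PTTG3P, like GAPDHP73, is a pseudogene whose reads may belong to its parent gene. The nearest gene, VCPIP1 at 14.2 kb, had a log2 fold change of −0.27 and was not called, nor were DNAJC5B, PDE7A, C8orf44, MCMDC2 and SNHG6. Around MYBL2, TTPAL, L3MBTL1 and SRSF6 rose by 0.96, 0.61 and 0.51, OSER1 fell by 0.37, and IFT52, the nearest gene that is not a pseudogene at 19.7 kb, had 0.08. RPL27AP, PPIAP21, OSER1-DT, FITM2 and RPL37AP1 were not called.

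**Figure D4:**
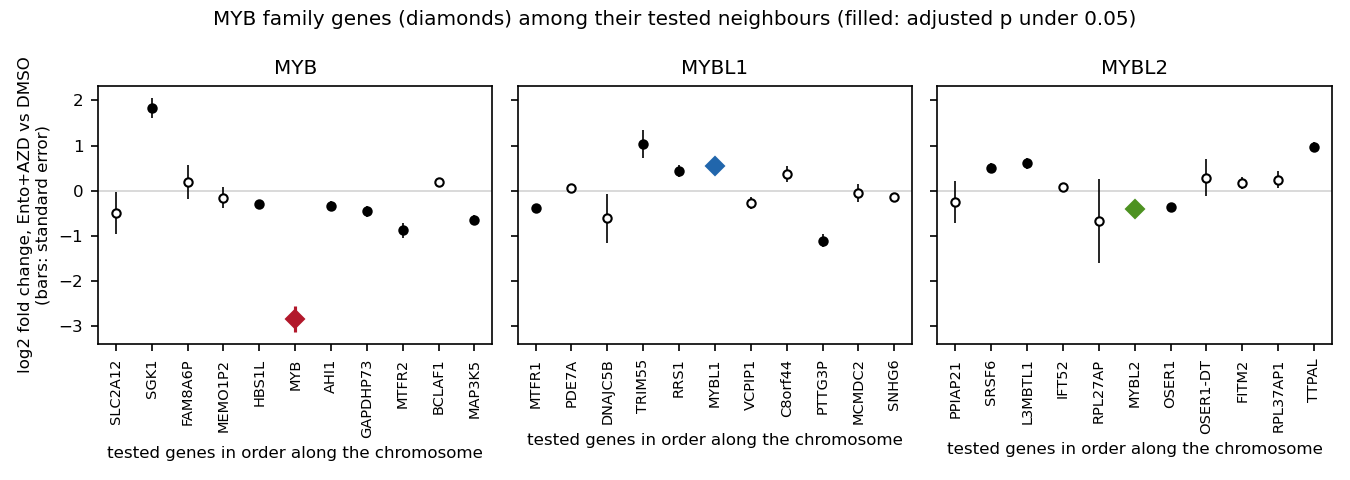
Fitted log2 fold changes of Ento+AZD against DMSO (vertical axis, bars are standard errors) for MYB, MYBL1 and MYBL2 (coloured diamonds) and the 5 nearest tested genes on each side, in order along the chromosome, with filled circles where called by edgeR's test at an adjusted p under 0.05. MYB, chosen for its fall, is at −2.85, and the lowest of its neighbours, MTFR2, is at −0.88.

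The genes whose pattern was most like that of each member were found by the root mean square difference of centred log2 CPM over the 12 libraries, among 14165 genes with a mean of at least 1 CPM and with the means of the replicate numbers removed. For MYB, which varied by 1.14 itself by this measure, they were CDT1 (0.318), the atypical E2F factor E2F8 (0.355), NUP62CL (0.368), E2F2 (0.370) and PACSIN3 (0.378). The same 5 genes were found when the replicate-number means were left in. Their log2 fold changes with Ento+AZD were −2.34, −2.20, −1.96, −2.05 and −2.23. Being picked for values like those of MYB, which was chosen for its fall, they had to fall too, so nothing is read from these values.

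For MYBL2, which varied by 0.272, the nearest were the RNA helicase DDX39A (0.057), BRIX1, a ribosome assembly factor (0.083), DNMT1, the maintenance DNA methyltransferase (0.089), ERF (0.092) and NXT1 (0.093). Of these, 3 were also found with the replicate-number means left in. For MYBL1, which varied by 0.236, they were LOC105372553 (0.082), PCDHGC5 (0.084), the lipase PNPLA2 (0.091), GGA2 and TAF1C (0.094 each), and 1 of these 5 was also found with the means left in.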

How the data were processed

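The authors enriched polyadenylated RNA, used CutAdapt and TrimGalore on single 75-base reads, aligned to GRCh38.p13, counted with Rsubread and deposited raw counts per gene symbol. The submitters' processing notes also list hg19, with no role given. The strand setting and the rule for reads matching several genes are not given in the sources used here. A second deposited table of log2 values was not used. Counts were analysed with edgeR 4.0.16 in R 4.3.3. filterByExpr within treatment groups, at its minimum count of 10 and minimum total of 15, left 16835 genes. Libraries were scaled by TMM, and 1 model without intercept took the treatment group and the replicate number, after the paper's batch term, whose levels it does not name. Contrasts were tested by the quasi-likelihood F-test with Benjamini-Hochberg adjustment over all genes. The code was tested on simulated counts for Ento+AZD against DMSO only. These held no effect of the replicate number, so that test does not bear on the block. Libraries of 1 group differed beyond sampling noise (chi-square per degree of freedom 8.21 to 48.5). The p-values measure the spread between libraries labelled as replicates.

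Whether the numbers in the sample titles pair the libraries was checked by correlating deviations from the group means over tested genes. The correlation was 0.213 to 0.703 for 18 pairs that share a number and −0.627 to 0.325 for 36 pairs that do not. Deviations within a group cancel, so positive values in the first set bring negative ones in the second, which is no separate support. The number was kept as a block on the values of the first set.

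The members and lists were chosen with earlier results of these data known. Named were the 3 members, all neighbours, of each list up to 4 called genes with the largest change in the comparison spoken of, the MuvB genes, FOXM1, CREBBP and EP300, and the 5 genes nearest in pattern to each member. HSPA8 and CXCR4 of the target list fell outside what is described, and LRMP was entered under its present symbol IRAG2. Genes printed for their sequence, MYC, and the lists' highest, lowest or uncalled gene were named after their values were seen. Positions and lengths come from GENCODE v44, in which 85.8% of tested symbols were found once, and promoters from RefSeq on GRCh38.p14. Alternatives were no replicate block, DESeq2 1.42.0, other scalings and filters, the compared groups alone and leaving out libraries.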

Additional observations from a re-analysis of the deposited data

How the results depend on the processing

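The alternatives were run for the 3 genes, the counts of called genes and, for the replicate block and the libraries numbered 2, the lists. None turned the direction of a called result. Calls of the chromosomal neighbours were not rerun, so how far they depend on the block is not known. The model without the replicate block weakened most. It gave edgeR's adjusted p = 0.583 for MYBL1 with Ento (0.37), 0.13 with Ento+AZD (0.55) and 0.559 for Ento+AZD against AZD (0.36), and for MYBL2 0.146 with Ento+AZD (−0.37) and 0.0906 against Ento (−0.63). Of the 16835 genes tested, those called without the block numbered 36 (Ento), 326 (AZD), 2398 (Ento+AZD), 206 (Ento+AZD against Ento) and 17 (against AZD). List genes called with Ento, AZD and Ento+AZD were 0, 0 and 2 for MuvB and partners and for G2/M, 0, 0 and 7 for G1/S, 0, 1 and 1 for cofactors, 0 and 1 with the single agents for MYB targets, 0, 0 and 5 for germinal-centre genes and 0, 0 and 2 for Myb-domain proteins.

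With library size only, MYBL1 with Ento missed the threshold (0.33, edgeR's adjusted p = 0.0571). With no filter, MYBL2 passed it with Ento (0.24, 0.0431) and for the interaction (−0.43, 0.0212), and 2294 genes were called with Ento and 278 for the interaction. With the compared groups alone, MYBL1 passed for Ento+AZD against Ento (0.19, 0.0492), 2343 genes were called with AZD, and the interaction cannot be computed. DESeq2 called 7 genes for the interaction. The cause of these shifts was not tested.

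Leaving out libraries, singly or, chosen after the data were seen, all those numbered 2, gave log2 fold changes from 0.28 to 0.45 for MYBL1 with Ento and 0.30 to 0.57 for Ento+AZD against AZD. For MYBL2 they ran from 0.13 to 0.43 with Ento, −0.52 to −0.17 with Ento+AZD and −0.63 to −0.30 for the interaction. Genes called ran from 427 to 1681 (Ento), 1253 to 4112 (AZD), 4879 to 6765 (Ento+AZD), 1402 to 4083 (against Ento), 595 to 2613 (against AZD) and 0 to 213 (interaction). Without the libraries numbered 2, list counts were 3 (MuvB, AZD), 0 (G2/M, G1/S and MYB targets, Ento), 5 (G1/S, AZD), 2 (MYB targets, AZD), 6 and 7 (germinal centre, Ento and Ento+AZD) and 1, 1 and 4 (Myb-domain, the 3 exposures). MYB, a description, ran from −3.10 to −2.39 with Ento+AZD and from −1.43 to −0.82 for the interaction. Its 8 to 42 counts per library there limit the precision more than the depth limits the paralogues, which had at least 2604 counts in every library.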
